A study of Mus musculus with 16 samples.

Results

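The 10 genes described here encode proteins that organise chromosomes and repair DNA breaks in meiosis: *Sycp1*, *Sycp2*, *Sycp3*, *Stra8*, *Dmc1*, *Mei4*, *Hormad1*, *Tex11*, *Smc1b* and *Rec8*. They were chosen by name, with earlier results of these data known. The transcript entry with the highest mean normalized count was kept for each gene. All 10 were found in each of the 3 deposited tables, with 1 entry per gene, among 19338 genes that carry a symbol.

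In meiosis, homologous chromosomes are shortened onto protein axes, paired along their length and recombined before they separate. STRA8 is the factor that starts the meiotic programme, REC8 and SMC1B are meiotic cohesin subunits, and SYCP2, SYCP3 and HORMAD1 build the chromosome axis. SYCP1 forms the transverse filaments that zip the axes together. MEI4 is needed to form the DNA breaks, DMC1 is the recombinase that invades the homolog with the broken end, and TEX11 is an X-linked factor of crossover formation. In embryonic stem cells (ESCs) many such germline genes are kept low, in part through a variant of Polycomb repressive complex 1 (PRC1) that carries E2F6 and the MGA/MAX pair, and through DNA methylation.

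Nuclear RNA depleted of rRNA was sequenced from mouse ESCs in 16 libraries, with 4 labelled replicates in each of 4 groups. All of the cells lack RING1 (Ring1a-/-) and carry a floxed allele of *Rnf2* (Ring1bfl/fl). PRC1-null cells were treated with 800 nM 4-hydroxytamoxifen for 72 h, which deletes *Rnf2*. PRC2-null cells carry a deletion of *Eed* made by CRISPR/Cas9 (labelled clone B4) and were left untreated, and PRC1/2-null cells are the same clone after the same tamoxifen treatment. The untreated parental cells serve as wild type, although they lack RING1. The *Eed*-deleted cells were at passages 30 to 40 and the parental line, with or without tamoxifen, at 25 to 35, so *Eed* genotype and passage cannot be told apart. A group without *Eed* descends from 1 clone, and other changes in that clone are not separated from the deletion.

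The measurement used here is the deposited mean normalized count, a single value per gene. It was identical in the 3 deposited comparisons and is therefore read as the mean over all 16 libraries. On that reading the 3 null groups and wild type are averaged together. The remaining columns hold the comparisons made for the study and were not used, and values per library were not analysed here. The levels below therefore have no replicate error and depth per library is unknown. No level can be assigned to a group, no difference between groups was tested, and the order of neighbouring genes could not be set against a spread.

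Pluripotency markers were well represented in this average, beside most of the listed markers of primitive endoderm. Of 10 pluripotency markers 9 were found, with means between 567.7 for *Utf1* and 5687 for *Esrrb*, both genes of pluripotent cells. All 8 markers of primitive endoderm, which contributes to the yolk sac, were found, with a median of 1130. They ranged from 3.32 for *Afp* to 44702 for *Lama1*, which encodes a basement membrane laminin. Of the 8 markers 6 lay above the median of all genes (191.6), and *Foxa2* at 161 and *Afp* lay below it. Fibroblast markers had a median of 60.9 and were highest for *Pdgfra* at 2021. *Vim*, *Pdgfrb*, *Thy1*, *Col1a2* and *Col1a1* stood at 306, 162, 128, 70.3 and 51.5. The lowest, *Lum*, *Dcn*, *Col3a1* and *Postn*, stood between 0.283 and 1.36. The 9 germ cell markers found had a median of 203, with 5 above and 4 below the median of all genes. The lowest was *Nanos2* at 0.775 and the highest *Ddx4*, an RNA helicase of germ cells, at 1022. Of the genes deleted in these lines *Eed* had a mean of 2723, *Rnf2* of 3208 and *Ring1* of 19.0. For *Eed* and *Rnf2* this is a mean over deleted and undeleted libraries and is no check of the labels. *Ring1* is lacking in every group, so its mean cannot tell the groups apart.

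The 10 meiotic genes all had a mean normalized count of at least 100. This was a level reached by 57.6% of all genes. Their median was 700.6, against 191.6 for all genes, and 8 of the 10 lay above the median gene. The 10 were chosen with earlier results of these data known, so their levels do not stand for meiosis genes in general. Of the other meiosis genes described below, 69.2% reached 100. The 10 genes spread from *Sycp1* at 2060 to *Sycp3* at 117. Counts of different genes also differ because long genes collect more reads. The level of each of the 10 is therefore also given below per kilobase (kb) of transcript. The plot of levels shows the genes on these scales.

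**Figure D1:**
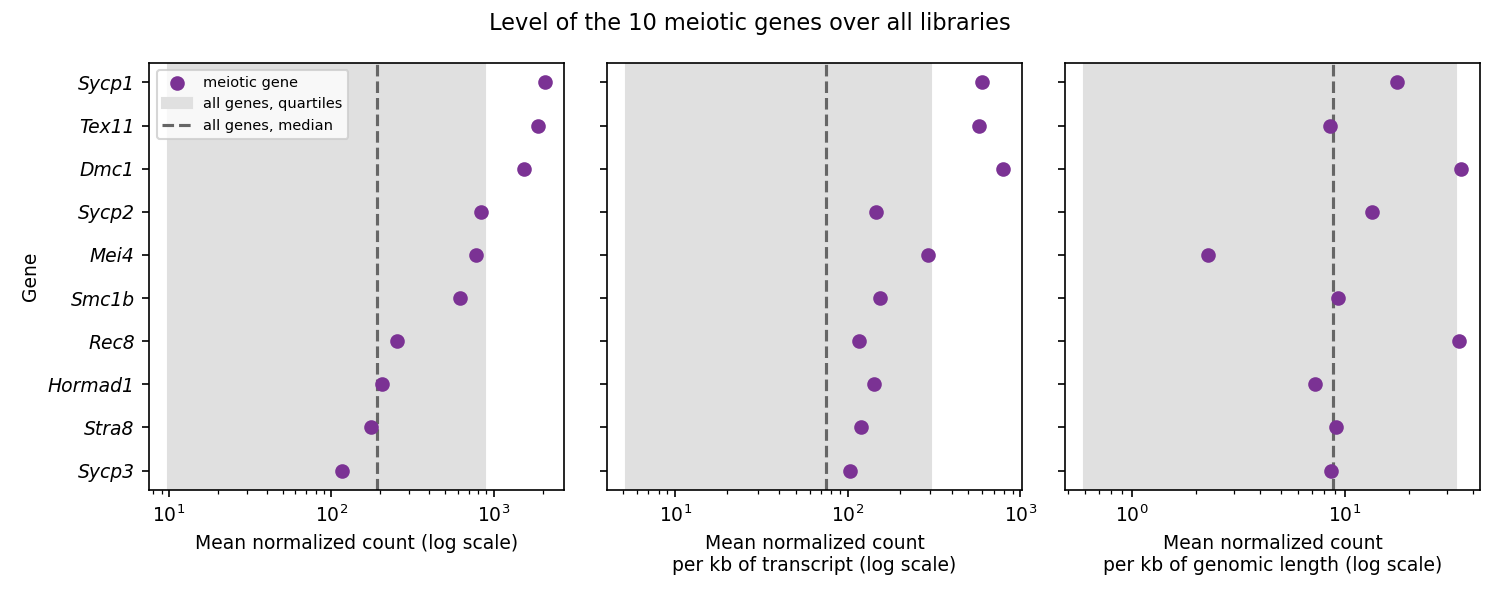
Mean normalized count of the 10 meiotic genes over all libraries (points), as counts, per kb of transcript and per kb of genomic length, each on a log axis, beside the quartiles (grey band) and median (dashed line) of all genes. *Sycp1*, *Tex11* and *Dmc1* stood highest by count and per kb of transcript, while per kb of genomic length *Dmc1* and *Rec8* led and *Mei4* was lowest.

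The synaptonemal complex genes covered the whole range of the 10. *Sycp1* (NM_011516, chromosome 3 from 102818499 to 102936100 of GRCm38, minus strand) had a mean normalized count of 2060, higher than 88.1% of all genes. Per kb of transcript its level was 599, above 87.1% of genes. *Sycp2* (NM_177191, chromosome 2 from 178345295 to 178407776, minus strand), whose protein pairs with SYCP3 in the axis, had a mean of 834.9 and a level of 146 per kb of transcript. *Sycp3* (NM_011517, chromosome 10 from 88459587 to 88473236, plus strand), the usual marker of the axis in spermatocytes, was the lowest of the 10 by count, at 117, and per kb of transcript, at 102. *Sycp2* stood above 74.2% and *Sycp3* above 44.0% of all genes by count. The whole of *Sycp3* lies inside *Chpt1*, a phospholipid synthesis gene on the opposite strand with a mean of 452.5. The libraries were made with a directional kit, but how strand was used in counting is not given in the sources used here, so the *Sycp3* value is uncertain. *Hormad1* (NM_001289537, chromosome 3 from 95559677 to 95587863, plus strand), which encodes an axis protein that monitors synapsis, had a mean of 204.1 and a level of 142 per kb of transcript.

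Among the genes of break formation and repair, *Dmc1* was well represented. *Dmc1* (NM_001278226, chromosome 15 from 79561497 to 79605159, minus strand) had a mean normalized count of 1527 and the highest level of the 10 per kb of transcript, 791, above 91.2% of all genes. *Tex11* (NM_031384, chromosome X from 100838648 to 101059639, minus strand), the only member on a sex chromosome, had a mean of 1877 and a level of 578 per kb of transcript, above 86.5% of genes. *Mei4* (NM_175213, chromosome 9 from 81863670 to 82206007, plus strand) had a mean of 780.2 and a level of 292 per kb of transcript. These 3 genes were thus among the 4 highest per kb of transcript, the other being *Sycp1*.

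By count and per kb of transcript, the meiotic cohesin genes and the inducer of meiosis lay below *Dmc1*, *Tex11* and *Mei4*. *Smc1b* (NM_080470, chromosome 15 from 85064689 to 85131957, minus strand) had a mean normalized count of 621.0 and a level of 153 per kb of transcript. *Rec8* (NM_020002, chromosome 14 from 55618002 to 55625395, plus strand) had a mean of 252.2 and a level of 115 per kb. *Stra8* (NM_009292, chromosome 6 from 34920163 to 34939344, plus strand), which is induced by retinoic acid in germ cells, had a mean of 174.1 and a level of 120 per kb. By count *Stra8* stood above 48.7% of all genes, and with *Sycp3* it was below the median gene. Per kb of transcript all 10 members lay above the median gene, which had a level of 75.03.

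The order of the members changed when the length of the whole gene replaced that of the transcript. Nuclear RNA holds unspliced transcripts, and whether reads in introns were counted is not given in the sources used here. The genes span 7.39 kb for *Rec8* to 342 kb for *Mei4*. Per kb of genomic length *Dmc1* had a level of 35.0 and *Rec8* of 34.1, the highest of the 10. *Sycp1* followed with a level of 17.5 per kb of genomic length. *Mei4* was lowest at 2.28 per kb of genomic length, and *Tex11*, second by count, was eighth at 8.49. On that scale 6 of the 10 lay above the median gene, which had a level of 8.74. Across the 10 members the mean count and genomic length had a Spearman rho of 0.72, and across 19327 genes of 0.51. With transcript length the values were similar, 0.68 across the members and 0.49 across 19233 genes. Among the 11137 genes with a mean of 100 or more, the rho with genomic length was 0.43. These are descriptions across genes that share all libraries, and genes are not independent replicates.

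The meiotic cohesin genes *Smc1b* and *Rec8* were below their mitotic relatives on both length scales. *Smc1b* had a level of 153 per kb of transcript, against 638 for *Smc1a*, the SMC1 subunit of mitotic cohesin, a ratio of 0.241. *Rec8* had a level of 115 per kb of transcript, against 1242 for *Rad21*, which encodes the kleisin that REC8 replaces in meiosis, a ratio of 0.093. *Smc1b* and *Rec8* remained the lower of their pairs per kb of genomic length, with ratios of 0.140 and 0.215. The other mitotic cohesin genes *Smc3*, *Stag1* and *Stag2* had levels of 849, 2333 and 553 per kb of transcript.

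**Figure D2:**
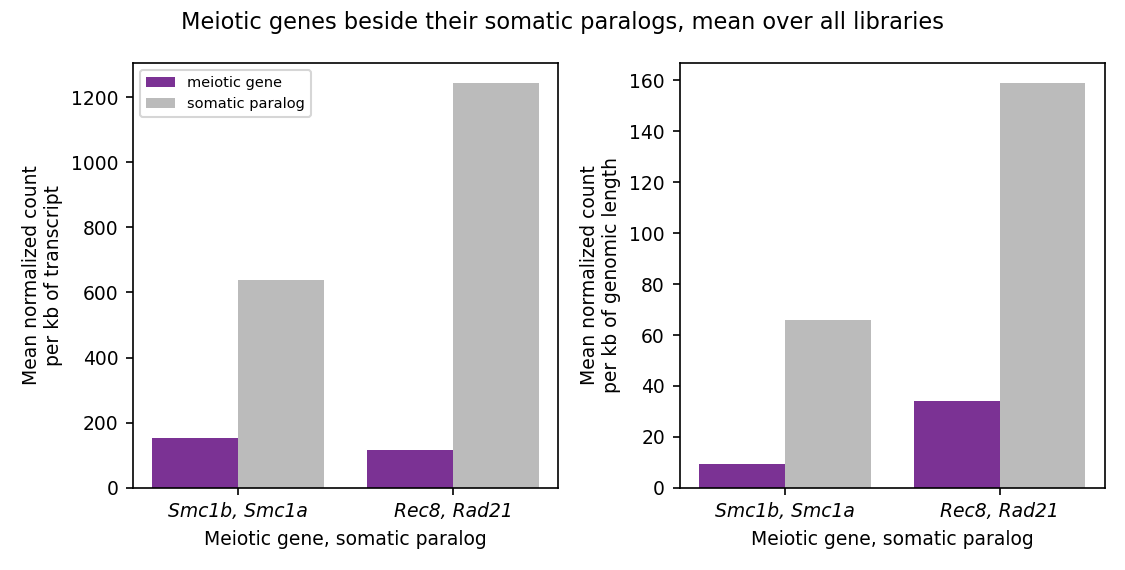
Bars give the mean normalized count over all libraries of 2 meiotic cohesin genes and of a somatic paralog each, per kb of transcript (left) and per kb of genomic length (right), with no error since 1 value per gene was used. *Smc1b* and *Rec8* are lower than *Smc1a* and *Rad21* in both panels.

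The 10 members were set beside a wider list of 46 other meiosis genes, of which 39 were found. These 39 had a median mean normalized count of 276.7, and 27 of them (69.2%) reached 100. The lowest by count were *Meiob* at 3.98, *Spo11* at 4.83, *Tex12* at 7.81 and *Syce3* at 13.3. SPO11 is the enzyme that cuts the DNA, and TEX12 and SYCE3 belong to the central element of the synaptonemal complex. The list thus held genes far below the lowest of the 10 members. The highest by count were *Brca2* at 3635, *Tex14* at 3328, *Sun1* at 2746, *Hormad2* at 2443 and *Ythdc2* at 1487. Of these *Brca2* and *Sun1* also work in somatic cells, in break repair and in the nuclear envelope. Per kb of transcript the 10 members had a median level of 150 and the 39 other genes of 105. The order of the 39 changed on that scale, where *Hormad2* was highest at 1819, with *Brca2* at 339 and *Ythdc2* at 206.

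The promoters of the members were read for 2 motifs, the E2F letters TTCCCGC and the E-box CACGTG, the sites of E2F and of MGA/MAX proteins. Each window ran from 250 bases before to 50 bases after 1 transcript start of the gene (RefSeq, GRCm38.p6), and both strands were searched. That start was the outer end of the gene, as given above, in *Sycp1*, *Sycp3*, *Mei4*, *Hormad1* and *Smc1b*, and in 58.4% of all genes. It lay inside the gene by 50 bases in *Dmc1*, 118 in *Sycp2*, 164 in *Rec8* and 785 in *Stra8*. The *Stra8* window began 535 bases inside the gene, so no base upstream of the outer end of *Stra8* was searched. From the GENCODE start of the transcript that was counted, the start the window was built on was 129 bases away in *Rec8*. It was at most 27 bases away in the other 8 members searched. A window was given for 9 members and not for *Tex11*. The E2F letters were present in *Sycp3*, *Hormad1* and *Smc1b*, 3 of 9 members (33.3%), against 6.82% of 15271 promoters of all genes. The E-box was present in *Sycp1*, *Sycp3* and *Hormad1*, 3 of 9 (33.3%), against 8.83% of all promoters. Both motifs were present in *Sycp3* and *Hormad1*, while 105 of all promoters (0.688%) held both. Of 30 other meiosis genes with a window, 10 (33.3%) held the E2F letters and 3 (10.0%) the E-box, and *Tex12*, *Stag3* and *Rec114* held both.

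The stretches that hold these matches are shown because they are the sequence feature that several members share. They are written 5′ to 3′ on the strand of the gene, upstream of the start the window was built on, with the matched letters in capitals.
*Sycp1*, chr3:102936177-102936206, minus strand: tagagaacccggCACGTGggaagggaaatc
*Sycp3*, chr10:88459428-88459561, plus strand: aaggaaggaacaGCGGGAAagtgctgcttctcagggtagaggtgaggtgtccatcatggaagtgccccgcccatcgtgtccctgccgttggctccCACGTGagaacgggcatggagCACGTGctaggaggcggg
*Hormad1*, chr3:95559570-95559674, plus strand: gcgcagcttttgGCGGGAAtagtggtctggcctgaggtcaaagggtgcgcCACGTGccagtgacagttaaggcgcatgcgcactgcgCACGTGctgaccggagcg
*Smc1b*, chr15:85131987-85132017, minus strand: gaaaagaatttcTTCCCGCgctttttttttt

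*Sycp3* and *Hormad1* were alike in arrangement, with 1 match to the E2F letters on the reverse strand followed by 2 E-boxes nearer to the start. In *Hormad1* the E2F letters began 95 bases before the start, and the E-boxes 57 and 20 bases before it. In *Sycp3* the E2F letters began 147 bases before the start, and the E-boxes 64 and 43 bases before it. The single E-box of *Sycp1* began 94 bases and the E2F letters of *Smc1b* 48 bases before the start. *Sycp2*, *Stra8*, *Dmc1*, *Mei4* and *Rec8* held neither run of letters in their windows, which for all but *Mei4* were built on a start inside the gene, and other starts of these genes were not searched. By count, not scaled by length, the 4 genes with a match had means of 117 to 2060 and the 5 without of 174.1 to 1527, so the ranges overlapped. Whether level goes with a match was not tested.

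**Figure D3:**
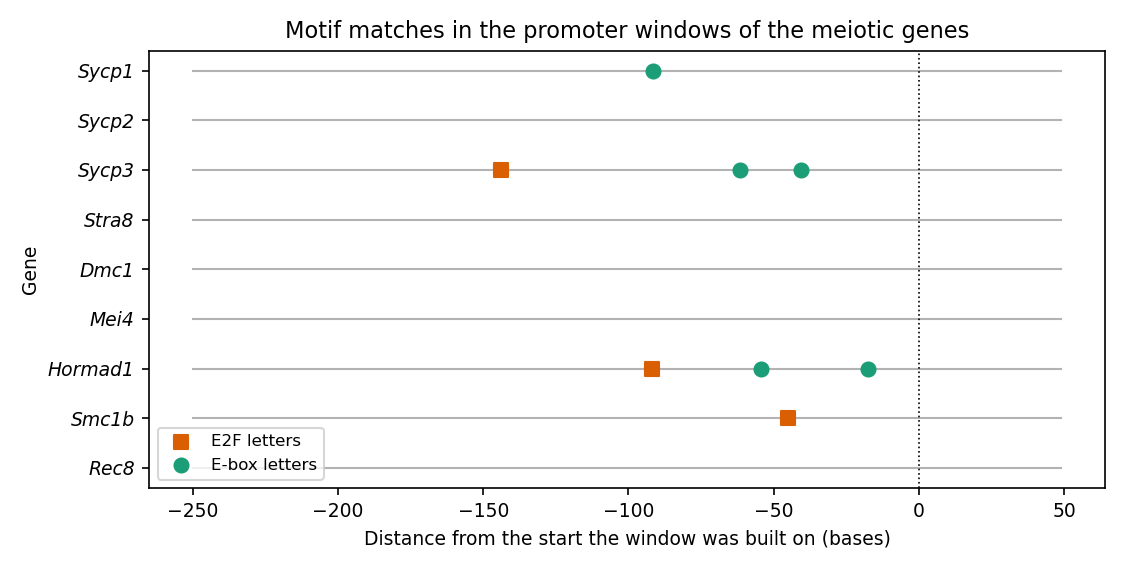
Position of the E2F letters (squares) and E-boxes (circles) in the promoter windows of 9 meiotic genes, in bases from the start the window was built on (dotted line). The 8 matches lie in 4 genes, between 147 and 15 bases before the start.

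The promoters also differed in CpG content, a feature of the islands that Polycomb complexes occupy. A window was counted as CpG-rich at an observed over expected CpG ratio of at least 0.6 and a GC content of at least 50%. By this measure 5 of 9 members were CpG-rich, *Sycp1*, *Sycp3*, *Hormad1*, *Smc1b* and *Rec8*, a share of 55.6%, against 52.0% of all promoters. *Smc1b* had the highest ratio, 1.08, above 96.2% of all promoters, and *Sycp1* followed at 0.874. *Sycp2* and *Stra8*, with windows built on a start inside the gene, had the lowest ratios, 0.363 and 0.430. *Mei4* at 0.580 and *Dmc1* at 0.571 lay just under the ratio of 0.6. The 4 genes with a motif match were all among the 5 with CpG-rich windows. CpG-rich promoters hold the motifs more often in general, with the E2F letters in 10.8% and the E-box in 11.7% of the 7946 such promoters.

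**Figure D4:**
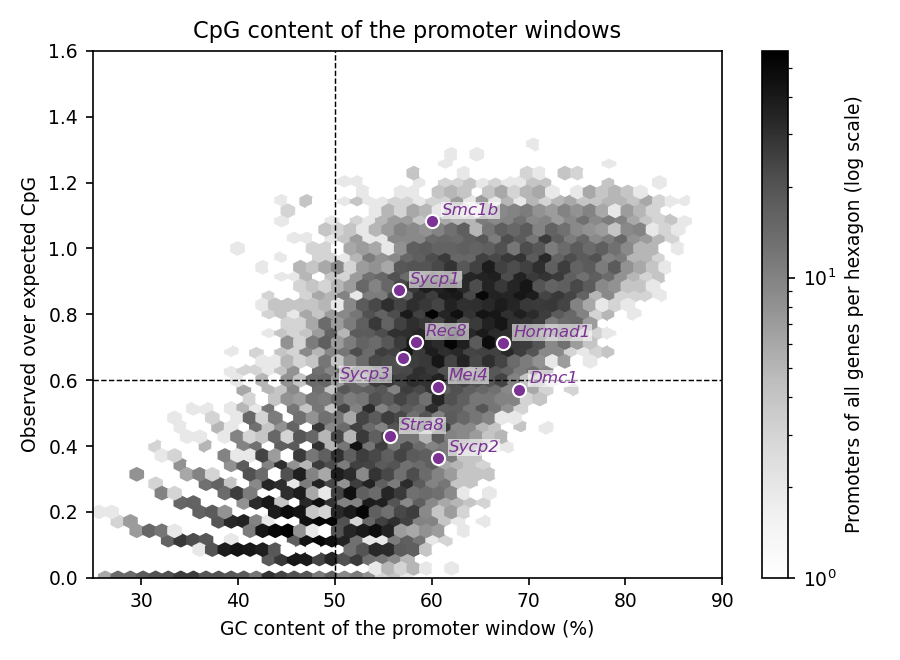
Observed over expected CpG against GC content in the promoter windows of 9 meiotic genes (labelled points) and of all 15271 genes with a window (grey hexagons), with dashed lines at a ratio of 0.6 and a GC content of 50%. *Smc1b* has the highest CpG ratio of the members, 1.08, and *Sycp2* the lowest, 0.363.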

How the data were processed

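Nuclear RNA-seq libraries of 4 groups of mouse ESCs were grouped by their labels. Before deposit the authors filtered out rRNA with Bowtie 2, mapped to mm10 using STAR, discarded PCR duplicates in SAMtools and ran DESeq2 on their nonredundant gene set. Versions, and how strand and introns were treated in counting, are not given in the sources used here. The deposited signal is the mean normalized count of each of 20633 RefSeq transcript entries. It is read as the average across the libraries after the authors scaled them to each other. The other deposited columns (2 forms of log2 fold change, a standard error, a test statistic, a p-value and an adjusted p) are the authors' comparisons with wild type. They were not used, so no test was run and no counting interval is given.

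Symbols were assigned to 20560 entries, 20450 by RefSeq (GRCm38.p6) and 110 by GENCODE M21, and the entry with the highest mean was kept per gene. Transcript lengths came from GENCODE M21, by accession for 19073 genes and otherwise from the longest transcript of the symbol, and were found for 99.5% of genes, members included. Genomic lengths and promoter windows came from RefSeq, and the first window listed for a gene was searched, whichever of its starts that window was built on. Overlapping motif matches on both strands of a palindrome were counted once. The motif search was tested on simulated windows of A and T only with a motif placed in them, so GC-rich sequence was not covered. The CpG ratio was tested on an alternating CG sequence and the percentile on a run of whole numbers. Members and lists were chosen with earlier results of these data known. Genes named outside the members were the 5 highest and 5 lowest other meiosis genes (1 of the lowest is not reported here), the mitotic cohesin genes, the extremes of each marker list and the deleted genes. *Chpt1*, *Stag3*, *Rec114*, *Foxa2* and further fibroblast markers were added after their values were seen. Means of 10 housekeeping genes ran from 437.8 for *Gusb* to 15159 for *Actb*. Alternatives to the entry kept, the table, the genes compared with, the length, the motif letters and the thresholds were tried. Software was Python 3.11.15 (matplotlib 3.10.9, numpy 2.4.6, scipy 1.17.1, pandas 2.3.3).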

Additional observations from a re-analysis of the deposited data

How the results depend on the processing

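Summing all entries of a symbol could not change the median level of the 10 members, since each has 1 entry. Taking the means from another of the deposited comparisons could not change it either, since they are identical. Compared with all transcript entries, with genes above 0 or with genes at 10 or more, 8, 7 and 6 members lay above the median. Per kb of genomic length 6 members lay above the median gene, against 10 per kb of transcript. The E2F letters without the last one were found in 3 of 9 members (33.3%) and in 17.7% of all promoters (25.6% of CpG-rich ones), against 6.82% for the full letters. With 1 more T in front (TTTCCCGC) they were found in 1 member, *Sycp3*, and in 1.65% of all promoters. The general E-box CANNTG was found in 7 of 9 members and in 67.3% of all promoters. At a CpG ratio of 0.75 and a GC content of 55%, 2 of 9 members (22.2%) were CpG-rich, *Sycp1* and *Smc1b*, against 34.5% of all promoters, so the order of the shares of members and of all promoters turned. All 10 members reached a mean of 10, as did 74.9% of all genes, and 3 (30.0%) reached 1000, against 22.7% of all genes, a share near that background. No paired analysis was possible because the means carry no replicates. Without values per library neither replicate error nor depth can be stated for any level.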
